A study of Arabidopsis thaliana with 20 samples.

Results

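Shoots of the autoimmune Arabidopsis thaliana line DM1-DM2d were compared with shoots of its wild-type control, Col-0, 12 days after sowing (DAS). The comparison uses 5 of the 20 RNA-seq libraries of the study, 3 of DM1-DM2d and 2 of Col-0 12 DAS, each labelled a biological replicate. Col-0 is the reference accession. Per the labels, the DM lines are Col-0 plants transformed with constructs that carry pairs of DANGEROUS MIX (DM) genes, here DM1 with DM2d. The promoter of the constructs and the number of independent transformed lines are not given in the sources used here, so an effect of the insertion site cannot be told apart from that of the gene pair. Plants of both groups grew on Murashige and Skoog agar with sucrose under long days, aerial tissue was taken whole, and both groups lie in label batch 1. Other groups entered as a reference for differences of effect. These were DM6-DM7 (n = 3), which carries DM6 with DM7, and Col-0 14 DAS (n = 3), both harvested 14 DAS, and DM1-DM2d adr1s (n = 3) and Col-0 adr1s (n = 3). All 20 libraries were fitted together. The filter, the scaling and the spread behind each test thus also draw on DM6-DM7 adr1s (n = 3), which is not compared here. The adr1s plants had ADR1, ADR1-L1 and ADR1-L2 knocked out by CRISPR-Cas9, and their labels state no age of their own. All nuclear genes of the count table were followed, 32548 of its 32833 genes. The other 285 are organelle genes.

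DM1 and DM2 are loci of immune receptors with a TIR domain, a nucleotide-binding domain and leucine-rich repeats. Natural alleles of the pair that meet in a hybrid set off immunity without a pathogen, a syndrome called hybrid necrosis. TIR receptors make small nucleotide signals that are read by EDS1 with PAD4 or SAG101, and these complexes act through helper receptors of the ADR1 and NRG1 families. Downstream lie the synthesis of salicylic acid from isochorismate and of N-hydroxypipecolic acid, the mobile signal of systemic acquired resistance. In leaves the immune state is known to come at a cost to photosynthesis and growth. Counts of genes related to the introduced alleles can hold reads of the constructs as well as of the Col-0 genes, and the 2 sources cannot be told apart here.

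The libraries held 86880565 to 104370141 counts. Nuclear genes took 87.6% to 88.7% of the counts in DM1-DM2d and 57.3% to 57.7% in Col-0. Levels are given as counts per 1000000 (CPM) of the library total, after scaling with edgeR's TMM factors (trimmed mean of M values), which were 0.723 to 0.936. A count of 0 allows up to 3 counts, or 0.0328 to 0.0478 CPM by library, and such limits cover counting error only. If both mates of a pair were counted, these limits are too low and folds set against them too high. For genes with a Col-0 library under these limits, among them ALD1, WRKY38, CCOAMT, CKX2 and DIN2, the size of the log2 change is less certain. Replicates of DM1-DM2d were close, with 6 to 19 of 13104 to 13168 genes at 5 CPM or more differing 2-fold between libraries. Between the Col-0 libraries 219 of 14021 such genes did, and the summed level of the salicylic acid genes described below was 527 CPM in replicate 1 and 255 CPM in replicate 2. Where leaving out a Col-0 library moved the printed log2 change of a called gene, or a list's median or count, by over 1.5 times, that value stands beside it. The levels are of whole shoots, so fewer cells of a type and less RNA per cell cannot be told apart in any result that follows.

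Of 23118 nuclear genes with enough counts to test, 16905 (73.1%) differed between DM1-DM2d and Col-0 12 DAS (edgeR's quasi-likelihood F-test; p adjusted by Benjamini-Hochberg, under 0.05). Higher in DM1-DM2d were 8535 (36.9%) and lower 8370 (36.2%), and the median log2 change over all tested genes was 0.01. The spread was wide: the middle 50% of genes lay between -1.37 and 1.11 on the log2 scale, and the 5th and 95th percentiles were -4.1 and 4.32. At least 2-fold higher were 5541 genes (24%) and at least 2-fold lower 6289 (27.2%). Changes of 32-fold or more were seen in 866 called genes that were higher and 626 that were lower. The 5 libraries separated by group for 19827 genes (85.8%), so a count of members that do not overlap says little by itself in this comparison. The remaining 9430 nuclear genes did not pass the filter on low counts, which ran over all 20 libraries. Of all 32548 nuclear genes, 5852 had no count in the 5 libraries compared. Tested genes include some of these, such as WUS, which enter the shares and medians. Among protein-coding genes 8367 of 21940 were higher and 8148 lower, and among other nuclear genes 168 of 1178 were higher and 222 lower. The median near 0 and the balance of higher and lower genes depend on the scaling, since TMM centres the bulk of the changes near 0. Under upper-quartile scaling the median of all genes shifted to -0.29 and 41.3% of the calls, not 50.5%, were higher (6967 higher and 9911 lower). Every count of members below is to be read against these shares of 36.9% higher and 36.2% lower. Gene families were gathered by symbol or synonym, so members with other names are not counted.

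**Figure D1:**
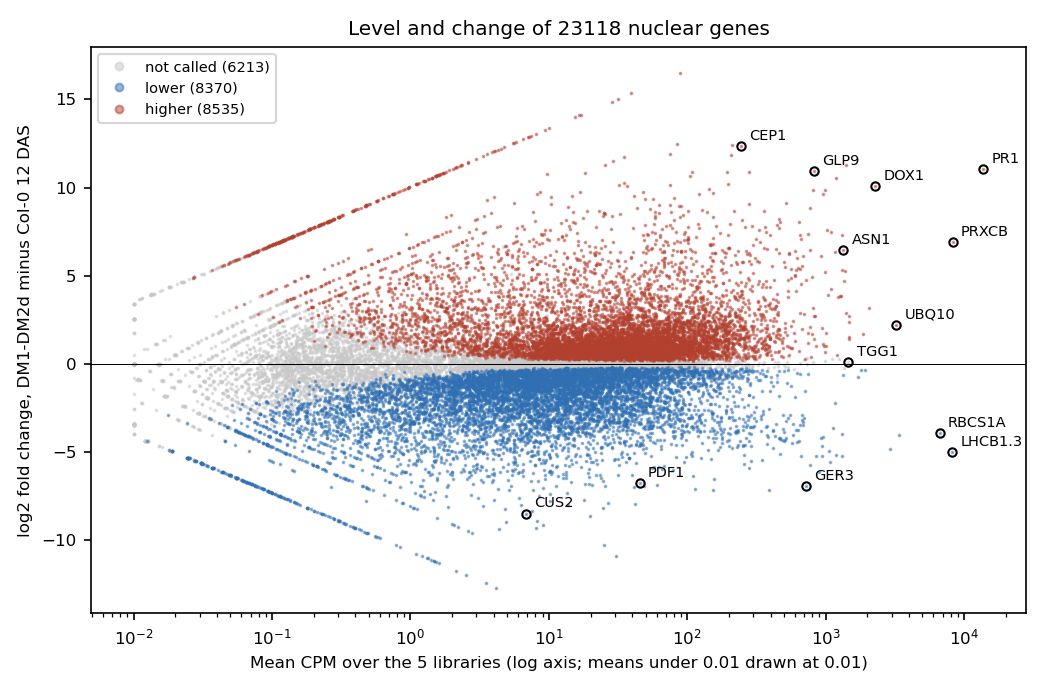
Each point is 1 of 23118 tested nuclear genes, placed by its mean CPM over the 5 libraries (log axis) and its log2 fold change, DM1-DM2d minus Col-0 12 DAS. Genes called higher (8535) are red, lower (8370) blue and not called (6213) grey. PR1 and PRXCB lie at the upper right, RBCS1A and LHCB1.3 at the lower right, and TGG1 close to 0.

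Promoters were read from the RefSeq TAIR10.1 genome, whose nuclear sequence is that of the TAIR10 build, as 250 bases before to 50 after each annotated start. A W box (TTGACC or TTGACT on either strand), the element that WRKY factors bind, was present in 32.6% of 23117 promoters. It was present in 39.6% of promoters of genes at least 2-fold higher in DM1-DM2d and in 27.2% of those at least 2-fold lower. Over 8 ranges of log2 change from -5 or less to 5 or more, the share ran 24.1%, 26%, 28.5%, 30.1%, 33.8%, 38%, 41.8% and 42.6%. It was 32.7% among genes that were not called. The site II element (TGGGCC, either strand), common in promoters of housekeeping and ribosomal genes, had another shape. Its share was 17.3% over all promoters, 6.94% at log2 changes of -5 or less, 22.4% between -1 and 0, and 3.9% at 5 or more. Shares of the CAMTA site (CGCGTT or CGCGTG, either strand), bound by calmodulin-binding transcription activators, were 8.64% in the higher genes, 5.17% in the lower and 6.58% in all. The G box (CACGTG), which reads the same on both strands, stood at 8.7%, 8.57% and 8.35%. These shares are descriptions with no test, and a match is not a bound site. GC content was 31.4% in the higher genes, 32.1% in the lower and 32.3% in all. It was 30.9% in genes at least 32-fold higher and 31.6% in those at least 32-fold lower. The part of base composition in the motif shares was not tested.

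**Figure D2:**
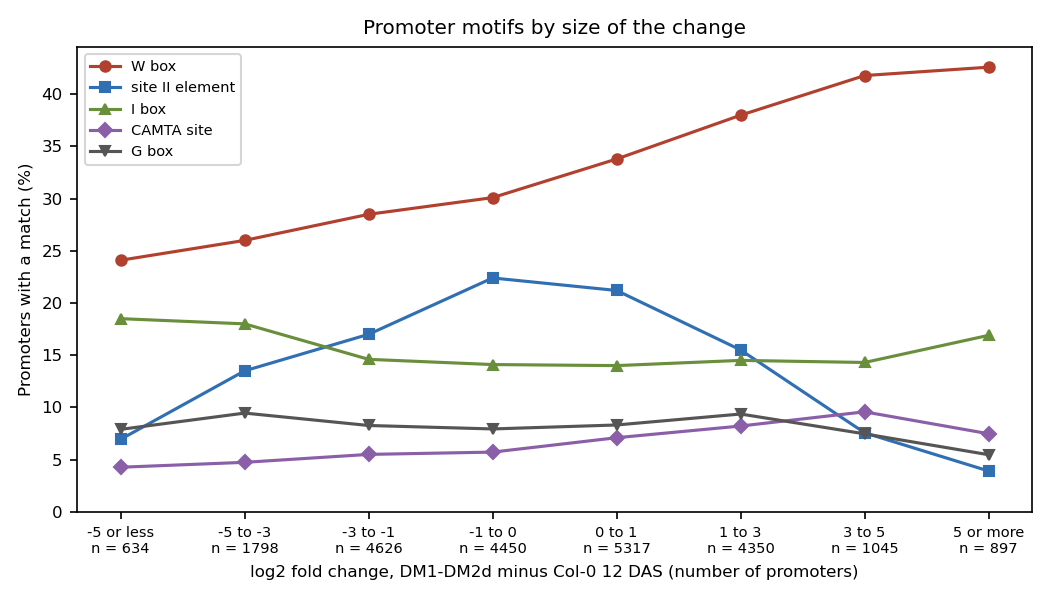
Share of promoters (percent, 250 bases before to 50 after the start) with a match to 5 motifs, by range of log2 fold change, with the number of promoters under each range. The W box share goes from 24.1% at the lowest to 42.6% at the highest changes, while the site II share is highest around 0 (22.4%) and low at both ends (6.94% and 3.9%).

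The 250 bases before the start are printed for 6 genes described below, 5′ to 3′ on the strand of the gene, with motif matches in capitals. The first 3 are promoters of strongly higher genes with at least 2 W boxes, for a danger peptide precursor (PROPEP3, chr5:25939312-25939561, plus strand), a cytochrome P450 (CYP82C2, chr4:15462100-15462349, plus strand) and a receptor-like kinase (CRK24, chr4:12191705-12191954, minus strand). AGO4 (chr2:11542392-11542641, minus strand) has 3 W boxes and was lower, as a counterexample. CYC1BAT (chr5:1861704-1861953, minus strand), a cyclin gene, has 2 MSA core motifs (TCAACGG or CCAACGG on either strand), an element of genes of mitosis. CSP41A (chr3:23328790-23329039, minus strand), a plastid RNA-binding protein gene, has 2 site II elements on opposite strands that overlap.
PROPEP3: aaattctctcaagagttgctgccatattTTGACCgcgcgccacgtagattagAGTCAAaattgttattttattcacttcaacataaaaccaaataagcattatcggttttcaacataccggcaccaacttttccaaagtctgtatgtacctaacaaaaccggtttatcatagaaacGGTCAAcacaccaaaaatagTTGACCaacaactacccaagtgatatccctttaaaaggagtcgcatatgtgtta
CYP82C2: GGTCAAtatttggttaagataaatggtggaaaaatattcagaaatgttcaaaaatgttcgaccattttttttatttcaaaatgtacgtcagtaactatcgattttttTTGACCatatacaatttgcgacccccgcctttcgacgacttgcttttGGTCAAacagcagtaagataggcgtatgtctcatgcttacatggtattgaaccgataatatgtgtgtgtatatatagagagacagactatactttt
CRK24: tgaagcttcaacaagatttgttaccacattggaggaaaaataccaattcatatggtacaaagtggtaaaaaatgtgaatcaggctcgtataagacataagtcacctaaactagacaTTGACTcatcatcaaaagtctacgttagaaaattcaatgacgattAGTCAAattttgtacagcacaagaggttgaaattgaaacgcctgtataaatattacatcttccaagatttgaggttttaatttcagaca
AGO4: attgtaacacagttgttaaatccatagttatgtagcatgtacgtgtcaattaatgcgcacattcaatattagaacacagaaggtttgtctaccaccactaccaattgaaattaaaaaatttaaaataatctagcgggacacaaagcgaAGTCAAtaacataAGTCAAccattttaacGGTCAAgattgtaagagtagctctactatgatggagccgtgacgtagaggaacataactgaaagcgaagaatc
CYC1BAT: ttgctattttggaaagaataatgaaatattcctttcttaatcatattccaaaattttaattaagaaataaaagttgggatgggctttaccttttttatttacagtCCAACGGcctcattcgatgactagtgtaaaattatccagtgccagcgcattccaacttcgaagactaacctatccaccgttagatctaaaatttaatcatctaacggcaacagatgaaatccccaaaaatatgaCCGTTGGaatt
CSP41A: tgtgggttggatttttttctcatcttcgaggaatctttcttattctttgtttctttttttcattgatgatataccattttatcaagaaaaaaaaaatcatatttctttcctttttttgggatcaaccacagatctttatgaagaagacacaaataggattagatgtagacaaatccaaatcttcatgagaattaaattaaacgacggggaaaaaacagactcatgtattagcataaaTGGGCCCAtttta

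The steps of salicylic acid and N-hydroxypipecolic acid were followed gene by gene, and 16 of 19 rose and 3 fell, with a median log2 change of 4. SARD1 (AT1G73805; chromosome 1, 27744790 to 27749248), a transcription factor gene that switches on ICS1, stood at 1284, 1384 and 1159 CPM in the DM1-DM2d libraries and 22 and 7.51 CPM in Col-0, a log2 change of 6.43 ± 0.65 (SE, adjusted p = 2.01e-07, edgeR). CBP60G, its close relative, stood at 1183, 1282 and 1026 CPM against 45.2 and 41 CPM (log2 change 4.75 ± 0.46). All DM1-DM2d libraries lay above both Col-0 libraries for these genes. CBP60A, a relative that restrains immunity, moved far less, from 30.7 and 34.8 CPM in Col-0 to 49.2, 48.2 and 47.8 CPM, a log2 change of 0.56 ± 0.17 (edgeR adjusted p = 0.0059), and its call was lost without Col-0 replicate 1 and under upper-quartile scaling. CAMTA3, a repressor of both activators, rose to 146, 147 and 127 CPM from 61.5 and 72 CPM (log2 change 1.07 ± 0.11).

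In the synthesis itself, ICS1 (AT1G74710; chromosome 1, 28070295 to 28074177), which makes isochorismate in the plastid, rose by a log2 change of 4.78 ± 0.6, whereas ICS2, the minor enzyme, fell from 5.42 and 4.23 CPM to 1.58, 1.48 and 1.11 CPM (-1.80 ± 0.36). EDS5, which exports isochorismate from the plastid, stood at 608, 632 and 579.8 CPM against 37.5 and 9.22 CPM. PBS3 (AT5G13320; chromosome 5, 4267456 to 4271064), which joins isochorismate to glutamate, stood at 2015, 2013 and 1726 CPM against 45.8 and 2.25 CPM. Its log2 change was 6.32 ± 1.1, and 9.68 without Col-0 replicate 1. EPS1, the last step to salicylic acid, rose from 4.86 and 4.5 CPM to 12.9, 16.7 and 16.7 CPM (1.72 ± 0.17). The summed level of the 19 genes was 7130 to 8250 CPM in DM1-DM2d and 255 to 527 CPM in Col-0. The median of the list was 5.48 without Col-0 replicate 1 and 3.2 without replicate 2.

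Genes that modify or remove salicylic acid split by enzyme. The hydroxylases DMR6 and DLO1 rose to 224, 244 and 228 CPM and 156, 154 and 129 CPM from 23.9 and 5 CPM and 2.08 and 0.286 CPM. UGT74F2, a salicylic acid glucosyltransferase, stood at 522, 531 and 509 CPM against 125 and 48.6 CPM (log2 change 2.58 ± 0.36), but its neighbour UGT74F1 fell from 2.07 and 1.59 CPM to 0.306, 0.211 and 0.377 CPM (-2.61 ± 0.32). The 2 are close copies, so reads shared between them are a source of uncertainty. BSMT1, which makes volatile methyl salicylate, stood at 0, 0.0234 and 0 CPM in DM1-DM2d, under the floor, and at 4.24 and 0.0955 CPM in Col-0 replicates 1 and 2, and its call (edgeR adjusted p = 0.00285) was lost without replicate 1, with DESeq2 and with the replicate block. MES9, a methyl esterase that can turn methyl salicylate back, rose from 0.83 and 0.7 CPM to 35.8, 40.3 and 39.2 CPM (log2 change 5.64 ± 0.5, edgeR adjusted p = 2.92e-08). The precursor of the microRNA miR163, known to target methyltransferase genes of the family of BSMT1, also rose, from 1.66 and 0.684 CPM to 8.02, 9.48 and 10.9 CPM (log2 change 3.01 ± 0.47). Its mature sequence, from the RefSeq TAIR10.1 annotation (chr1:24884359-24884382, plus strand), is given with bases 2 to 8 in capitals, which mark position only.
miR163: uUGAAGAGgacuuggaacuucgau

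On the N-hydroxypipecolic acid side, ALD1, the first enzyme, stood at 72, 61.6 and 44.5 CPM against 5.12 and 0.0318 CPM, and SARD4, the second, at 331, 305 and 283 CPM against 42.7 and 14.4 CPM. FMO1 (AT1G19250; chromosome 1, 6650476 to 6653195), which makes N-hydroxypipecolic acid, stood at 622, 499 and 448 CPM against 7.64 and 0.159 CPM. UGT76B1, which adds glucose to it, stood at 149.8, 130.1 and 118 CPM against 18.3 and 0.589 CPM. Log2 changes were 4.52 ± 1.3, 3.42 ± 0.38, 7.06 ± 1.2 and 3.81 ± 0.98. Without Col-0 replicate 1 those of ALD1, FMO1 and UGT76B1 were 10.74, 11.61 and 7.76, so their size rests on which control library is used while the direction does not. For ALD1 the level left in Col-0, 0.0318 CPM, lies under the floor of replicate 2 (0.0478 CPM), so 10.74 is not a measured size. With only the 5 libraries in the fit, UGT76B1 was not called.

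**Figure D3:**
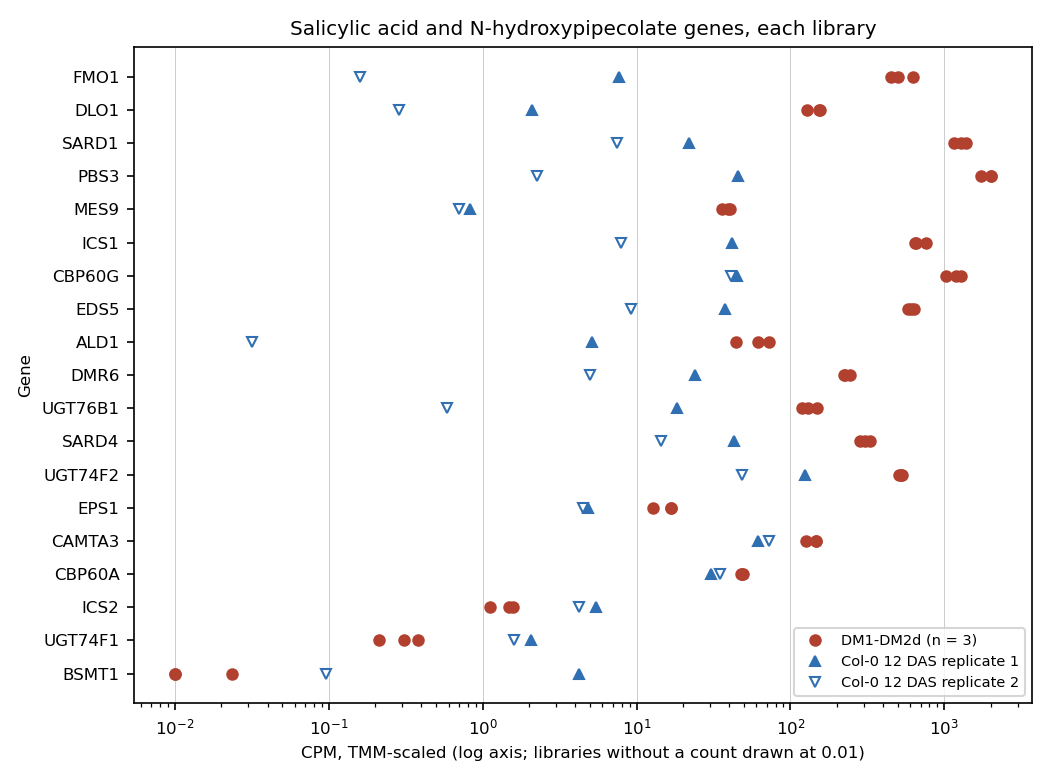
Level of each of the 19 salicylic acid and N-hydroxypipecolic acid genes in every library, as TMM-scaled CPM on a log axis, with DM1-DM2d as red circles and Col-0 replicates 1 and 2 as filled and open triangles. The 16 higher genes have all circles to the right of both triangles, the 3 lower genes (ICS2, UGT74F1 and BSMT1) to the left, and the triangles lie far apart for ALD1, FMO1, UGT76B1 and PBS3.

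Pathways that supply and use chorismate leaned up. Of 20 tested genes of the shikimate pathway and tryptophan synthesis, 12 were higher and 6 lower (median log2 change 0.79). DHS3 (AT1G22410), an entry enzyme of the shikimate pathway, stood at 792, 690.5 and 672 CPM against 222 and 182 CPM (log2 change 1.83 ± 0.11, edgeR adjusted p = 1.22e-10). The chorismate mutase genes CM1 and CM2, at the branch to phenylalanine and tyrosine, rose by 1.52 ± 0.22 and 1.58 ± 0.12 on the log2 scale. Of the tryptophan branch, TSA1 rose to 214, 181 and 177 CPM from 70.5 and 54.9 CPM, while PAI1 fell to 2.7, 2.82 and 3.04 CPM from 9.01 and 8.25 CPM. Phenylpropanoid and lignin genes were higher in 15 of 21 cases and lower in 6 (median 1.17). C4H, the cinnamate hydroxylase, stood at 590.4, 520.4 and 526 CPM against 100.2 and 96.7 CPM (2.47 ± 0.3). CCOAMT (AT1G67980), annotated as a caffeoyl-CoA methyltransferase, stood at 90, 98.1 and 81.5 CPM against 0.362 and 0.0318 CPM (8.80 ± 1.1). ELI3-2, annotated as a cinnamyl alcohol dehydrogenase, stood at 492, 433 and 421 CPM against 30.2 and 0.509 CPM; its log2 change of 4.87 was 9.73 without Col-0 replicate 1, and its call was lost with only the 5 libraries in the fit. In the other direction went 4CL3, a ligase of the flavonoid branch (-3.25 ± 0.58), and LAC4, a laccase of xylem lignin, which stood at 1.1, 0.702 and 1.21 CPM against 18.2 and 15.8 CPM.

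**Figure D4:**
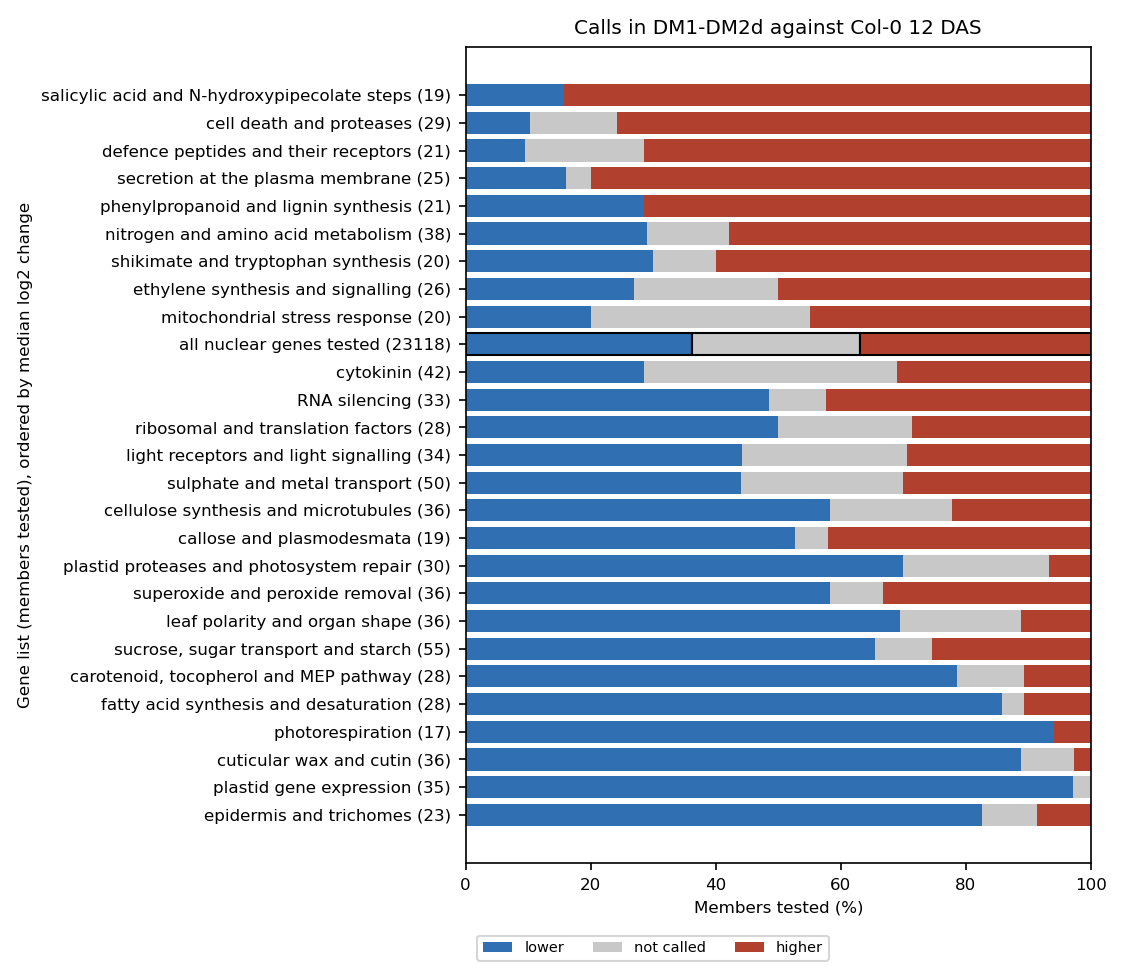
For each gene list, the percent of tested members called lower (blue), not called (grey) and higher (red) in DM1-DM2d, ordered by median log2 change, with the number tested in parentheses and all 23118 nuclear genes outlined. Salicylic acid genes are at one end (16 of 19 higher) and epidermis genes (19 of 23 lower) and plastid gene expression (34 of 35 lower) at the other.

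Receptors at the cell surface differed by family. Wall-associated kinases, which sense pectin fragments, were higher in 11 of 12 tested genes and lower in 1 (median log2 change 2.28). WAK2 stood at 245, 252 and 208 CPM against 52.3 and 46.9 CPM (2.25 ± 0.41). WAK1 stood at 583, 587 and 563 CPM and Col-0 at 83.7 and 11.6 CPM, and its log2 change of 3.60 was 5.58 without Col-0 replicate 1. W boxes were found in 66.7% of the 12 promoters of this family, but in 15.8% of the 19 promoters of the salicylic acid list, against 32.6% of all. Cysteine-rich receptor-like kinases were higher in 27 of 40 cases and lower in 9 (2.09). CRK13, known for raising immunity when overexpressed, stood at 376, 398 and 311 CPM against 22 and 8.68 CPM (4.56 ± 0.74). CRK24, whose promoter is printed above, stood at 25.1, 28.1 and 24.5 CPM against 0.423 and 0.382 CPM (log2 change 6.0 ± 0.47). CRK30 and CRK42 went down, from 18 and 28.3 CPM to 0.754, 0.421 and 0.389 CPM and from 17 and 24.1 CPM to 0.404, 0.41 and 0.663 CPM. Receptor-like proteins, which lack a kinase domain, were higher in 29 of 47 cases and lower in 11 (1.41). RLP22 stood at 110.1, 105 and 99.4 CPM against 1.27 and 1 CPM (6.53 ± 0.51). TMM, a receptor-like protein of stomatal patterning, fell from 38 and 32.5 CPM to 1.73, 1.43 and 2.15 CPM (-4.32 ± 0.22). Lectin receptor kinases stood closer to the background, with 18 of 39 higher and 10 lower (0.34), although AT3G45410 rose from 1.39 and 1.18 CPM to 176, 166 and 153 CPM. Members of these families lie in tandem clusters and share sequence, so reads of close copies are a source of uncertainty.

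Peptides that amplify immunity and their receptors were higher in 15 of 21 cases and lower in 2 (median 1.75). PROPEP2 and PROPEP3, precursors of the danger peptides that PEPR receptors read, stood at 14.1, 10.2 and 10.3 CPM and 21.7, 16 and 14.4 CPM against 0.166 and 0.127 CPM and 1.63 and 1.43 CPM. Their log2 changes were 6.28 ± 0.83 and 3.50 ± 0.37. MIK2, the receptor of SCOOP peptides, stood at 913, 819 and 729 CPM against 233 and 252 CPM (1.76 ± 0.16). PSK2, a phytosulfokine precursor, rose from 0.423 and 0.605 CPM to 21.1, 25.1 and 23.5 CPM. RALF23, whose peptide dampens immune receptor complexes through FERONIA, fell from 58.5 and 92.6 CPM to 22.1, 21.1 and 29 CPM (-1.65 ± 0.19), and FER, the gene of that receptor, rose by 0.79 ± 0.17.

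Genes that decode calcium leaned up. Calcium-dependent protein kinases were higher in 23 of 28 cases and lower in 1 (median 1.23; 2 lower without Col-0 replicate 1), and calmodulin-like proteins in 9 of 12 with 1 lower (2.77). CPK5, which phosphorylates the oxidase RBOHD, rose from 128 and 126 CPM to 226, 218 and 199 CPM (0.75 ± 0.13), and CPK29 from 19.7 and 12.4 CPM to 171, 182 and 172 CPM (3.44 ± 0.29). CML41, which acts on plasmodesmata during immunity, stood at 291, 349.9 and 350.5 CPM against 4.57 and 2.29 CPM (6.59 ± 0.67). TCH3 stood at 1285, 1312 and 1188 CPM against 120.2 and 161 CPM (3.17 ± 0.18). Channels were split. Cyclic nucleotide-gated channels were higher in 7 of 20 cases and lower in 5 (0.07; 0.02 and 0, with 3 lower, without Col-0 replicates 1 and 2). CNGC19, a channel of damage signalling, rose from 6.43 and 2.18 CPM to 119, 161 and 139 CPM, while DND1, also called CNGC2, whose loss of function itself causes autoimmunity, fell from 77.7 and 83 CPM to 10.5, 12.1 and 13.8 CPM (-2.73 ± 0.15, edgeR adjusted p = 1.79e-11). Glutamate receptor-like channels were higher in 9 of 19 cases and lower in 7 (0.59, and 0.93 without Col-0 replicate 2). GLR1.3 rose from 1.33 and 0.302 CPM to 91, 81.7 and 80.2 CPM, and GLR3.4 fell from 34.9 and 28.3 CPM to 10.5, 10.1 and 9.03 CPM.

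MAP kinases of all tiers were higher in 28 of 48 cases and lower in 9 (0.92). MPK11 stood at 145, 126 and 127 CPM against 11.9 and 1.56 CPM (4.29 ± 0.85), and MPK3, a main immune kinase, at 378, 369 and 332 CPM against 152 and 222 CPM (0.95 ± 0.16). NP3, a MAP kinase kinase kinase gene of the NPK1 type, which acts in cytokinesis in tobacco, fell from 15.5 and 14.3 CPM to 2, 1.94 and 1.94 CPM. MLO2, a gene needed for powdery mildew infection, rose from 166 and 199.9 CPM to 883, 810.1 and 765 CPM (2.16 ± 0.15), with 5 of 13 MLO genes higher, 6 lower and a median of 0.16 (0.01 without Col-0 replicate 2, -0.15 under upper-quartile scaling, -0.23 with a minimum count of 50). Plant U-box ubiquitin ligases were higher in 11 of 22 cases and lower in 6 (0.35; 0.16 without Col-0 replicate 1 and 0.61 without replicate 2). PUB13, a ligase that restrains immunity, stood at 322, 329 and 294 CPM against 68.6 and 66.9 CPM (2.22 ± 0.094), whereas its partner in FLS2 turnover, PUB12, fell from 7.82 and 10.7 CPM to 4.5, 4.62 and 4.84 CPM (-0.99 ± 0.19). Of 10 ATL RING ligases 2 were higher and 5 lower (-0.46, and -0.7 without Col-0 replicate 1; 4 higher without replicate 2).

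Among transcription factors, WRKY genes were higher in 46 of 67 cases and lower in 7 (median 2.05). WRKY38 and WRKY62, which act together downstream of NPR1, stood at 109.7, 103 and 101 CPM and 39.7, 41.4 and 42.6 CPM against 0.362 and 0.0318 CPM and 0.0604 and 0.191 CPM, log2 changes of 9.02 ± 0.66 and 8.36 ± 0.77. WRKY72 stood at 157, 156 and 122 CPM against 0.332 and 0.255 CPM (8.94 ± 0.47). WRKY70 and WRKY18 stood at 839, 876 and 805 CPM and 876, 871 and 798 CPM against 25.2 and 12.1 CPM and 51.8 and 73.2 CPM. WRKY7, which represses defence, was among the 7 that fell, from 18.8 and 22.8 CPM to 6.2, 5.27 and 5.05 CPM (-1.92 ± 0.17). W boxes were in 35.8% of the 67 WRKY promoters and in 32.6% of all promoters.

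NAC genes were higher in 48 of 83 cases and lower in 21 (median 1.21). ANAC087 (AT5G18270), a gene of developmental cell death in the root cap, stood at 733, 764 and 712 CPM against 3.38 and 2.88 CPM, with a log2 change of 7.88 ± 0.26 (edgeR adjusted p = 5.65e-14). NAP, a regulator of leaf senescence, rose from 2.31 and 1.29 CPM to 112, 139 and 133 CPM (6.15 ± 0.86). MYB genes were higher in 48 of 103 cases and lower in 33 (0.89). MYB108 rose from 0.604 and 0.605 CPM to 27.3, 25.1 and 23.5 CPM. MYB34, an activator of indole glucosinolate synthesis, fell from 27.4 and 21.7 CPM to 0.36, 0.702 and 0.8 CPM (-5.30 ± 0.31), and MYB16, a cuticle regulator, from 23.4 and 22.1 CPM to 0.459, 0.468 and 0.514 CPM (-5.56 ± 0.24). bZIP genes were higher in 20 of 41 cases and lower in 6 (0.58, and 0.33 without Col-0 replicate 1). BZIP28 and BZIP60, membrane-held factors of the unfolded protein response, stood at 114, 110 and 99.1 CPM and 251, 243 and 247 CPM against 23.1 and 24.1 CPM and 60.5 and 73.9 CPM. TGA9 rose from 0.211 and 0.239 CPM to 9, 10.2 and 9 CPM. AGAMOUS-like MADS genes had 15 of 47 higher and 12 lower (0; 0.16 and 0.2 without Col-0 replicates 1 and 2). Their counts changed with the Col-0 library left out, to 11 higher and 7 lower without replicate 1 and 9 higher and 13 lower without replicate 2.

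Other factor families went down or did not lean one way. bHLH genes named by number were lower in 13 of 22 cases and higher in 7 (-3.03; 4 higher without Col-0 replicate 1), with bHLH39 and BHLH100, iron-deficiency factors, at 1.02, 0.48 and 0.697 CPM and 0.502, 0.48 and 0.354 CPM against 13.6 and 16.8 CPM and 21.7 and 23.1 CPM. TCP genes were lower in 14 of 20 cases and higher in 3 (-1.51). TCP14, a factor that immune effectors target, fell from 74.1 and 74.5 CPM to 13.9, 16.3 and 13 CPM (-2.37 ± 0.13), and TCP13 rose from 19.4 and 16.7 CPM to 140.4, 129 and 128 CPM (2.88 ± 0.17). ERF genes named by number were lower in 11 of 24 cases and higher in 6 (-0.82, but -0.19 without Col-0 replicate 2), and 3 were higher without replicate 1. ERF6 stood at 11.4, 9.13 and 7.71 CPM against 26.9 and 60.3 CPM, where the Col-0 libraries themselves were more than 2-fold apart. Heat shock factors and proteins were higher in 17 of 43 cases and lower in 13 (0.12; 0.35 and -0.15 without Col-0 replicates 1 and 2). Hsp70-2 stood at 1830, 1846 and 1578 CPM against 145 and 41.3 CPM (4.23 ± 0.6), while CR88, the plastid Hsp90, fell from 223 and 249 CPM to 49.7, 49.7 and 53.8 CPM.

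Of 25 tested genes of secretion at the plasma membrane 20 were higher and 4 lower (median 1.33). SYP122 (AT3G52400; chromosome 3, 19425632 to 19427230), a plasma membrane syntaxin, stood at 628, 619 and 550.4 CPM against 51.8 and 67.9 CPM (3.32 ± 0.28, edgeR adjusted p = 1.14e-08). Its SNARE partners SNAP33 and VAMP722 stood at 352, 336 and 308 CPM and 295, 309 and 328 CPM against 52.8 and 49.6 CPM and 49.2 and 43.7 CPM, with log2 changes of 2.70 ± 0.13 and 2.74 ± 0.12. PEN3, a transporter recruited to attack sites, was not called: its libraries stood at 1451, 1139 and 938 CPM against 946 and 1038 CPM and overlap. PEN2, the myrosinase that supplies PEN3, fell from 291 and 383 CPM to 219.5, 189 and 168 CPM (-0.81 ± 0.16).

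Callose and plasmodesmata genes were split, with 8 of 19 higher and 10 lower (median -0.94). The callose synthases CALS1 and CALS9 stood at 600.3, 683 and 543 CPM and 486, 470.4 and 456 CPM against 64.4 and 54.5 CPM and 141 and 117 CPM (3.35 ± 0.16 and 1.87 ± 0.11). PDLP5, which closes plasmodesmata in response to salicylic acid, stood at 278, 328 and 276 CPM against 4.36 and 2.45 CPM (6.43 ± 0.38). Its relatives PDLP2 and PDLP3 fell, from 17.6 and 15.6 CPM to 1.17, 0.609 and 1.82 CPM and from 38.1 and 58.7 CPM to 2.23, 1.81 and 3.18 CPM. PDCB2, a callose-binding protein, fell from 25.1 and 30.2 CPM to 0.306, 0 and 0.354 CPM (-6.95 ± 0.56).

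Proteases and markers of cell death were higher in 22 of 29 cases and lower in 3 (median 1.94), and their summed level was 8680 to 9800 CPM in DM1-DM2d and 1040 to 1110 CPM in Col-0. CEP1 (AT5G50260; chromosome 5, 20455317 to 20457068), a papain-type protease with a KDEL retention signal that acts in dying cells, stood at 338, 437 and 446 CPM against 0.0906 and 0.0637 CPM, a log2 change of 12.33 ± 0.85 (edgeR adjusted p = 2.17e-09). DOX1 (AT3G01420), a dioxygenase that oxidises fatty acids during the hypersensitive response, stood at 4191, 3886 and 3273 CPM against 5.01 and 1.94 CPM (10.09 ± 0.88). RD19, a vacuolar protease, rose from 404 and 425 CPM to 1127, 1139 and 1037 CPM. The members that fell included XCP1 and XCP2, proteases of dying xylem vessels, at 1.55, 0.737 and 1.26 CPM and 1.56, 0.983 and 1.19 CPM against 11 and 11.5 CPM and 19.9 and 18.6 CPM.

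Proteasome and autophagy genes leaned up. Of 39 subunits of the 26S proteasome 38 were higher and 0 lower, and 1 was not called (median 0.97), with a summed level of 4920 to 5320 CPM against 2300 to 2310 CPM. RPT1A rose from 113 and 100.3 CPM to 401, 386 and 371 CPM (1.85 ± 0.086) and RPN13 from 27.6 and 28.3 CPM to 102, 105 and 98.9 CPM (1.87 ± 0.09). The site II element was in 51.3% of the 39 promoters, against 17.3% of all. Autophagy genes were higher in 20 of 21 cases and lower in 0 (1.67), with a sum of 1730 to 1890 CPM against 442 CPM in each Col-0 library. ATG8H and ATG8E, of the proteins that coat the autophagosome membrane, stood at 150.1, 162 and 149.6 CPM and 201, 215 and 208 CPM against 8.99 and 6.34 CPM and 19.3 and 26.5 CPM (4.33 ± 0.2 and 3.19 ± 0.25). UBQ10, a polyubiquitin gene, rose from 1040 and 984 CPM to 4821, 4717 and 4606 CPM (2.22 ± 0.092), although its repeats are shared with other polyubiquitin genes. Ribosomal and translation factor genes did not follow, with 8 of 28 higher and 14 lower (-0.27). TOR, the growth kinase that holds autophagy in check, rose from 105 and 93.4 CPM to 257, 252 and 211 CPM (1.27 ± 0.1).

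Families of detoxification and specialised metabolism moved in both directions. Glutathione transferases were higher in 25 of 44 cases and lower in 13 (1.12; 1.64 and 0.67 without Col-0 replicates 1 and 2). GSTU8 stood at 345, 345 and 333 CPM against 6.69 and 7.32 CPM (5.61 ± 0.3), and GSTU20 at 18.8, 30.1 and 30.3 CPM against 284 and 293 CPM (-3.45 ± 0.2). UDP-glycosyltransferases were higher in 19 of 51 cases and lower in 21 (-0.47, but 0.08 with no filter on low counts). UGT85A1, which glucosylates cytokinins, rose from 81 and 31.9 CPM to 909, 1043 and 967 CPM, and UGT78D1, a flavonol rhamnosyltransferase, fell from 52.6 and 59.6 CPM to 2.11, 1.97 and 2.33 CPM. Cytochrome P450s were higher in 68 of 179 cases and lower in 63 (0.32; 0.14 without Col-0 replicate 2), which is close to the background in both directions. CYP71A12 and CYP82C2, of the indole-3-carbonyl nitrile and camalexin branches of defence, stood at 778, 596 and 504 CPM and 162, 140.3 and 71.8 CPM against 11.7 and 1.72 CPM and 0.0604 and 0 CPM. CYP71B9 had no counts in either Col-0 library and stood at 51.8, 54.3 and 51.7 CPM in DM1-DM2d. Against a floor of 3 counts over the group it was 2260-fold higher, and less if both mates of a pair were counted. ABC transporters were higher in 48 of 114 cases and lower in 39 (0.23; 0.16 and 0.05 without Col-0 replicates 1 and 2, -0.09 under upper-quartile scaling). ABCC7 stood at 1240, 1342 and 1135 CPM against 11.7 and 3.45 CPM (7.35 ± 0.53).

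Secreted peroxidases of class III with a symbol were higher in 6 of 10 cases and lower in 1 (2.87). PRXCB (AT3G49120; chromosome 3, 18207651 to 18210333), an apoplastic source of hydrogen peroxide in defence, stood at 14010, 13860 and 13240 CPM against 134 and 96.2 CPM (6.89 ± 0.35, edgeR adjusted p = 9.66e-12). PRXCA, its neighbour and close copy, fell from 63.4 and 86.3 CPM to 4.96, 2.91 and 4.43 CPM (-4.19 ± 0.43), and reads shared by the copies limit both values. Germin-like proteins were higher in 4 of 9 cases and lower in 3 (2.64; 1.5 and 1.49 without Col-0 replicates 1 and 2). GLP5 stood at 1697, 1605 and 1542 CPM against 48.3 and 37.9 CPM (5.23 ± 0.28). GER3 (AT5G20630) was the reverse, at 21.7, 10.6 and 11.4 CPM against 1667 and 1877 CPM (-6.93 ± 0.61). Intracellular genes of superoxide and peroxide removal were lower in 21 of 36 cases and higher in 12 (-1.32). Among those that fell were plastid enzymes: TAPX, the thylakoid ascorbate peroxidase (-4.13 ± 0.16), and 2CPA, a peroxiredoxin (-3.61 ± 0.15). The cytosolic APX1 and GPX2 rose, APX1 from 397 and 348 CPM to 729, 647 and 694 CPM and GPX2 from 48.9 and 40.3 CPM to 595, 572 and 539 CPM. CAT3, a catalase, fell from 2086 and 2414 CPM to 1465, 1341 and 1232 CPM (-0.74 ± 0.27), a call that was lost without Col-0 replicate 2 and with the replicate block.

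Primary metabolism of nitrogen and carbon was rearranged. Of 38 nitrogen and amino acid genes 22 were higher and 11 lower (median 1.09). ASN1 (AT3G47340; chromosome 3, 17437840 to 17441431), the asparagine synthetase of starved and dark-treated leaves, stood at 2104, 2527 and 1998 CPM against 21 and 30.1 CPM, a log2 change of 6.43 ± 0.77 (edgeR adjusted p = 1.39e-06). ASN2, the isoform of well-lit leaves, was at 20.2, 12.4 and 17.9 CPM against 306 and 418 CPM (-4.43 ± 0.27). GDH2, a glutamate dehydrogenase, rose from 139 and 152 CPM to 2116, 1994 and 2047 CPM (3.82 ± 0.24). NRT1.8, a transporter that unloads nitrate from the xylem, stood at 319, 282 and 293 CPM against 11.7 and 5.19 CPM.

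Sugar and starch genes leaned down, with 14 of 55 higher and 36 lower (-1.46). Those that fell included TPT, the plastid triose phosphate exporter, from 723 and 708 CPM to 115, 106 and 112 CPM (-2.69 ± 0.12), and PGM, a plastid enzyme of starch synthesis, from 265 and 286 CPM to 28.1, 23.1 and 28.7 CPM (-3.37 ± 0.14). CWINV1, a cell wall invertase of the kind that feeds sugar to sink cells, stood at 622, 559 and 533 CPM against 24.2 and 26.2 CPM (4.50 ± 0.21). The sugar exporter gene of senescence, SWEET15, rose by a log2 change of 6.82 ± 1.3, to 93.2, 88.9 and 108 CPM. Of 20 genes of the mitochondrial stress response 9 were higher and 4 lower (0.52; 0.79 without Col-0 replicate 2). AOX1A, the alternative oxidase, rose from 73 and 47.9 CPM to 260.2, 229 and 243 CPM (2.01 ± 0.18). BCS1, an outer membrane protein of the salicylic acid response, rose from 28.6 and 23.4 CPM to 362, 360.4 and 341 CPM, and NDA1, a light-induced NADH dehydrogenase, fell from 15.4 and 9.62 CPM to 0.415, 0.258 and 0.548 CPM.

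Plastid functions beyond the photosystems were mostly lower. Of 17 photorespiration genes 16 were lower and 1 higher (-2.76). SHM1 and GLDP1, the mitochondrial enzymes that turn glycine into serine, stood at 139, 118 and 131 CPM and 141, 147 and 191 CPM against 1415 and 1440 CPM and 1499 and 1394 CPM (-3.46 ± 0.12 and -3.18 ± 0.15). The exception, BASS6, a plastid glycolate exporter, rose from 2.6 and 2.48 CPM to 7.98, 8.29 and 7.18 CPM. Plastid gene expression had 34 of 35 nuclear genes lower and 0 higher (-3.08), and a summed level of 970 to 1010 CPM against 6150 to 6590 CPM. CSP41A and CSP41B, RNA-binding proteins of the plastid nucleoid, stood at 10.2, 9.39 and 10.6 CPM and 31.5, 27.7 and 33.8 CPM against 186 and 185 CPM and 636 and 671 CPM (-4.20 ± 0.11 and -4.40 ± 0.13). GUN1, a regulator of plastid-to-nucleus signalling, was the member not called, at 319, 403 and 371 CPM against 360.4 and 329 CPM with the groups overlapping. Its log2 change of 0.08 was -0.07 without Col-0 replicate 2 and -0.23, called lower, under upper-quartile scaling. Site II elements were in 37.1% of these promoters, so this motif occurred both in a family that rose (the proteasome) and in one that fell.

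Plastid proteases and repair factors were lower in 21 of 30 cases and higher in 2 (-1.31). DEGP2 fell from 214 and 209 CPM to 13.5, 10.7 and 12.6 CPM (-4.11 ± 0.11), and CLPD, a chaperone subunit of senescing plastids, rose from 148 and 93.7 CPM to 774, 615 and 554 CPM (2.42 ± 0.19). Carotenoid, tocopherol and isoprenoid genes were lower in 22 of 28 cases and higher in 3 (-1.59; 5 higher without Col-0 replicate 1). NPQ1, the violaxanthin de-epoxidase, fell from 83.1 and 74 CPM to 6.84, 6.65 and 7.33 CPM, but VTE2, which commits homogentisate to tocopherol, and PDS1, which makes homogentisate, rose from 26.5 and 23.8 CPM and 37.5 and 18.4 CPM to 195, 189 and 172 CPM and 96, 112 and 98.2 CPM. Fatty acid synthesis and desaturation was lower in 24 of 28 cases and higher in 3 (-1.7). ACP4, the leaf acyl carrier protein, fell from 285 and 274 CPM to 22.1, 17.3 and 19.9 CPM (-3.82 ± 0.16), whereas FATB, which releases palmitate from the plastid, rose from 96.3 and 92.4 CPM to 372, 376 and 377 CPM (1.99 ± 0.13).

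Surface and water relations of the shoot followed the downward side. Cuticular wax and cutin genes were lower in 32 of 36 cases and higher in 1 (-2.77; 0 higher with either Col-0 library left out). CUS2, a cutin synthase, stood at 0.0437, 0 and 0.0914 CPM against 13 and 21 CPM (-8.50 ± 0.84), and CER1, of alkane wax synthesis, at 1.16, 0.772 and 1.32 CPM against 37.5 and 42.8 CPM (-5.21 ± 0.36). Epidermis and trichome genes were lower in 19 of 23 cases and higher in 2 (-3.1). PDF1, a protodermal gene, stood at 1.68, 0.164 and 1.21 CPM against 115 and 108 CPM (-6.76 ± 0.54). ATML1 and PDF2, its activators, stood at 14.8, 14.3 and 15.5 CPM and 21.4, 20.4 and 18.9 CPM against 116 and 146 CPM and 144 and 163 CPM. TTG1, which trichomes also need, rose from 27.3 and 28.4 CPM to 42.1, 41 and 41.8 CPM (0.58 ± 0.13), a call lost under upper-quartile scaling. Lipid transfer proteins with a symbol were lower in 8 of 12 cases and higher in 3 (-3.35; 1 higher without Col-0 replicate 1), and LP1 fell from 557 and 669.8 CPM to 39, 27.4 and 34.8 CPM. Aquaporins were lower in 20 of 31 cases and higher in 5 (-2.42). DELTA-TIP and GAMMA-TIP, water channels of the vacuole membrane, stood at 13.1, 10.1 and 11 CPM and 7.33, 6.47 and 8.78 CPM against 281 and 388 CPM and 305 and 306 CPM. The 7 jacalin lectins found by symbol or synonym were all lower (-2.15). JR1, a jasmonate-responsive lectin, stood at 9.14, 7.64 and 9.53 CPM against 64.6 and 93.1 CPM.

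Growth genes were mainly lower, with exceptions. Leaf polarity and organ shape genes were lower in 25 of 36 cases and higher in 4 (-1.42). YAB3, of the YABBY factors that mark the lower leaf side, fell from 45.3 and 51.1 CPM to 5.02, 4.52 and 6.23 CPM (-3.20 ± 0.15), and KAN3 rose from 6.91 and 7.61 CPM to 55, 54.1 and 47.5 CPM (2.85 ± 0.18). Cyclins were lower in 29 of 40 cases and higher in 4 (-1.62; 2 higher with either Col-0 library left out). CYC1BAT, a B-type cyclin gene whose MSA elements are printed above, fell from 27.8 and 24.6 CPM to 2.31, 1.45 and 1.89 CPM (-3.80 ± 0.24). The MSA core was in 20% of the 40 cyclin promoters, against 4.58% of all. CYCT1;4, of the T type that acts in transcription and not in division, rose from 20.9 and 23 CPM to 27.4, 31.1 and 28.4 CPM, a call also lost under upper-quartile scaling. Histone genes were lower in 14 of 22 cases and higher in 3 (-0.77). HTB2 fell from 48.4 and 52.6 CPM to 11.6, 12.3 and 12.3 CPM, while HTB4 was not called, at 198, 198 and 204 CPM against 174 and 186 CPM. Histone genes are near-identical copies, so their separate values are uncertain. Cellulose synthesis and microtubule genes were lower in 21 of 36 cases and higher in 8 (-0.54; 5 higher without Col-0 replicate 1). CESA3, of primary walls, was not called except under upper-quartile scaling, where it was lower (502, 471 and 493 CPM against 479 and 538 CPM), whereas CESA4, of secondary walls, fell from 10.9 and 10.5 CPM to 1.86, 1.49 and 1.99 CPM (-2.58 ± 0.18).

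Ethylene, cytokinin, light and transport genes were followed as well. Ethylene genes were higher in 13 of 26 cases and lower in 7 (0.53). ACS7, an ethylene precursor synthase, rose from 12.3 and 10.8 CPM to 134, 144 and 118 CPM (3.52 ± 0.4). Cytokinin genes were higher in 13 of 42 cases and lower in 12 (-0.13). The cytokinin oxidases CKX2 and CKX3, which degrade the hormone, stood at 28.4, 20 and 18.1 CPM and 33.7, 31.2 and 32.3 CPM against 0.121 and 0.0318 CPM and 0.83 and 0.86 CPM (8.14 ± 0.66 and 5.26 ± 0.66). ARR6 and ARR7, response genes that the hormone induces, fell from 17.3 and 21.4 CPM and 30.7 and 33.7 CPM to 2.88, 2.21 and 2.7 CPM and 2.57, 2.49 and 4.58 CPM. AHK3, a cytokinin receptor, rose from 125 and 125 CPM to 340.5, 355 and 333 CPM (1.45 ± 0.086). Light receptors and signalling genes were higher in 10 of 34 cases and lower in 15 (-0.27, and -0.45 without Col-0 replicate 2). The phototropins PHOT1 and PHOT2 fell from 216 and 209 CPM and 189.7 and 178 CPM to 13.9, 14.4 and 16.1 CPM and 18.4, 20.6 and 23.1 CPM, and HY5 rose from 11.2 and 13.4 CPM to 33.9, 41.3 and 42.8 CPM. Sulphate and metal transport had 15 of 50 higher and 22 lower (-0.29, 0 without Col-0 replicate 1 and -0.47 without replicate 2). FRO6, a ferric reductase of leaves, stood at 0.306, 0.0468 and 0.651 CPM against 37.6 and 33.9 CPM, and NRAMP3, a vacuolar metal exporter, rose from 15.3 and 8.23 CPM to 77.4, 70.9 and 82 CPM.

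RNA silencing genes were split, with 14 of 33 higher and 16 lower (-0.26, and -0.41 without Col-0 replicate 2). AGO4 and ROS1, which set and remove DNA methylation, fell from 61.2 and 61.3 CPM and 56.1 and 59.5 CPM to 8.2, 7.27 and 8.56 CPM and 11.4, 9.69 and 9.92 CPM (-2.94 ± 0.12 and -2.48 ± 0.15). AGO3, next to AGO2 in the genome, rose from 2.23 and 2.87 CPM to 23.1, 19.9 and 17.5 CPM (2.98 ± 0.23), and NRPD1A, of RNA polymerase IV, from 8.45 and 9.49 CPM to 38.7, 42.6 and 38 CPM. Of 325 microRNA precursor genes 103 were tested, 10 of them higher and 33 lower (-0.77). With either Col-0 library left out 6 were higher, and with only the 5 libraries in the fit 18 of 76 were. Such genes are short and partly lie within others, so reads of a host transcript can enter their counts.

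Markers of cell types were followed to check the labelled tissue. Several, such as RBCS1A, LHCB1.3, ATML1, PDF1, XCP1 and XCP2, are also described in other paragraphs, so their values are not separate evidence. Mesophyll markers were lower in 7 of 7 cases (-5.25) and summed to 1700 to 2110 CPM in DM1-DM2d against 44900 to 45200 CPM in Col-0. Xylem markers were lower in 8 of 8 cases (-3.95; 4.12 to 6.88 CPM against 74.8 to 79.9 CPM) and pavement cell markers in 5 of 5 (-3.07; 126 to 141 CPM against 1000 to 1250 CPM). Guard cell markers did not share this: 3 of 9 were higher and 3 lower (-0.21), and they summed to 145 to 161 CPM against 131 to 153 CPM. ALMT12, an anion channel of guard cells, stood at 31.9, 40.2 and 36.6 CPM against 17.9 and 16.5 CPM (1.08 ± 0.23), the highest change of the 9. The lowest was -1.14, and 1 of the 9 was called at least 2-fold lower. Companion cell markers were lower in 2 of 5 cases (-0.15), sieve element markers in 2 of 4 (-2.2), and shoot meristem markers in 2 of 5 with 1 higher (-1.21). WUS, which defines the stem cell niche, had 0 counts in the 5 libraries, and CLV3 had 0 counts in all but 1 Col-0 library. Root markers were lower in 5 of 10 tested cases and higher in 2 (-0.95). Apart from PYK10 (478, 282 and 323 CPM against 585 and 949 CPM) and PHT1;1 (3.24, 3.56 and 2.62 CPM against 4.18 and 3.22 CPM), each root marker was under 1 CPM in each library. Medians and counts of the marker lists were not recomputed with a Col-0 library left out. The part that a different make-up of cells has in the results was not tested.

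The far ends of the ranking were taken by genes with almost no counts in 1 group. The 10 largest increases under the naming rule had no counts in either Col-0 library. Among them AT5G38910, a cupin, stood at 136, 128 and 178 CPM in DM1-DM2d (at least 6330-fold higher), scpl14, a serine carboxypeptidase-like gene, at 69, 65 and 61.2 CPM (at least 2800-fold), and ADPG1, a pectin-degrading enzyme of abscission and dehiscence zones, at 53.7, 38.1 and 50.2 CPM (at least 2040-fold). In all, 271 genes were called higher with no count in Col-0, and 202 were called lower with no count in DM1-DM2d. At the low end were AT3G16670, of the pollen allergen and extensin type (0, 0 and 0.114 CPM against 83.6 and 69.1 CPM), AT1G06360, a fatty acid desaturase gene (0.0983, 0 and 0.0457 CPM against 65.9 and 58.9 CPM), and EXPA5, an expansin (0.153, 0.129 and 0.103 CPM against 30 and 38 CPM, log2 change -8.03 ± 0.31).

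By share of nuclear counts no gene was among the leading 10 in both groups. In DM1-DM2d the 10 genes with the largest shares took 6.27% to 6.46% of nuclear counts. After PR1 and PRXCB these were UBQ10, AIG1, DOX1, ECS1, SAMDC, DIN2, XTH24 and HA2. ECS1 stood at 3125, 3431 and 2978 CPM against 467 and 251 CPM, SAMDC, of polyamine synthesis, at 2632, 2485 and 2544 CPM against 817 and 794 CPM, and HA2, a proton pump of the plasma membrane, at 2375, 2286 and 1997 CPM against 321 and 351 CPM. DIN2, a dark-induced glucosidase gene, stood at 2377, 2571 and 2106 CPM against 1.86 and 0.0318 CPM. AIG1, an early immune gene, stood at 3783, 4233 and 3695 CPM against 63.1 and 1.77 CPM, and its log2 change of 6.91 was 11.06 without Col-0 replicate 1. In Col-0 the 10 leading genes took 8.44% to 8.45%, and all are photosynthetic, such as RBCS1A (1055, 897 and 1038 CPM against 15630 and 14630 CPM) and PSBR (483, 488 and 457 CPM against 7497 and 7951 CPM). Small-subunit and antenna genes are near-identical within their families, so their split by gene is uncertain. A share of a library is relative: a rise of some transcripts lowers the share of others.

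Some abundant genes were not called. LOS1, an elongation factor, stood at 1614, 1600 and 1547 CPM against 1582 and 1401 CPM (0.09 ± 0.1, edgeR adjusted p = 0.436). TGG1, the myrosinase of idioblast cells, stood at 1503, 1622 and 1357 CPM against 1290 and 1502 CPM (0.10 ± 0.17, edgeR adjusted p = 0.611). LOS2, an enolase, AAC1, the mitochondrial ADP/ATP carrier, and HOG1, an enzyme of the methyl cycle, had log2 changes of 0.16 ± 0.12, 0.00 ± 0.084 and 0.09 ± 0.13. Without Col-0 replicate 1 TGG1 was at -0.06 and LOS2 at 0.01, and without replicate 2 LOS1 was at -0.08 and HOG1 at -0.04. Under upper-quartile scaling LOS1, TGG1, LOS2, AAC1 and HOG1 were at -0.23, -0.22, -0.16, -0.31 and -0.22, and AAC1 was then called lower. For each of these 5 genes the 2 groups overlapped, which limits the change but does not show that there was none.

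Some neighbouring genes moved together, in 15 runs of at least 7. The longest run of consecutive tested genes called higher by at least 2-fold held 12 genes on chromosome 5 from 21359001 to 21390189 (AT5G52660 to AT5G52770), with a median log2 change of 6.46. A run of 9 ended at WRKY38 (chromosome 5, 7478569 to 7496990, median 6.67), and 8 genes around WAK1 to WAK4 rose together (chromosome 1, 7421148 to 7455009, 4.26). The SNARE genes VAMP722 and VAMP723 lay in a run of 8 (chromosome 2, 14041014 to 14063623, 3.48). Among lower runs, 8 genes lay on chromosome 1 from 29508951 to 29530669 (-4.39), and 7 on chromosome 2 from 9753631 to 9802676 (-2.46), the cluster of serine carboxypeptidase-like genes with SNG1, of sinapoyl malate synthesis. Some of these runs hold tandem copies, and 24% of all tested genes were at least 2-fold higher and 27.2% lower, so runs are given as a description with no test.

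**Figure D5:**
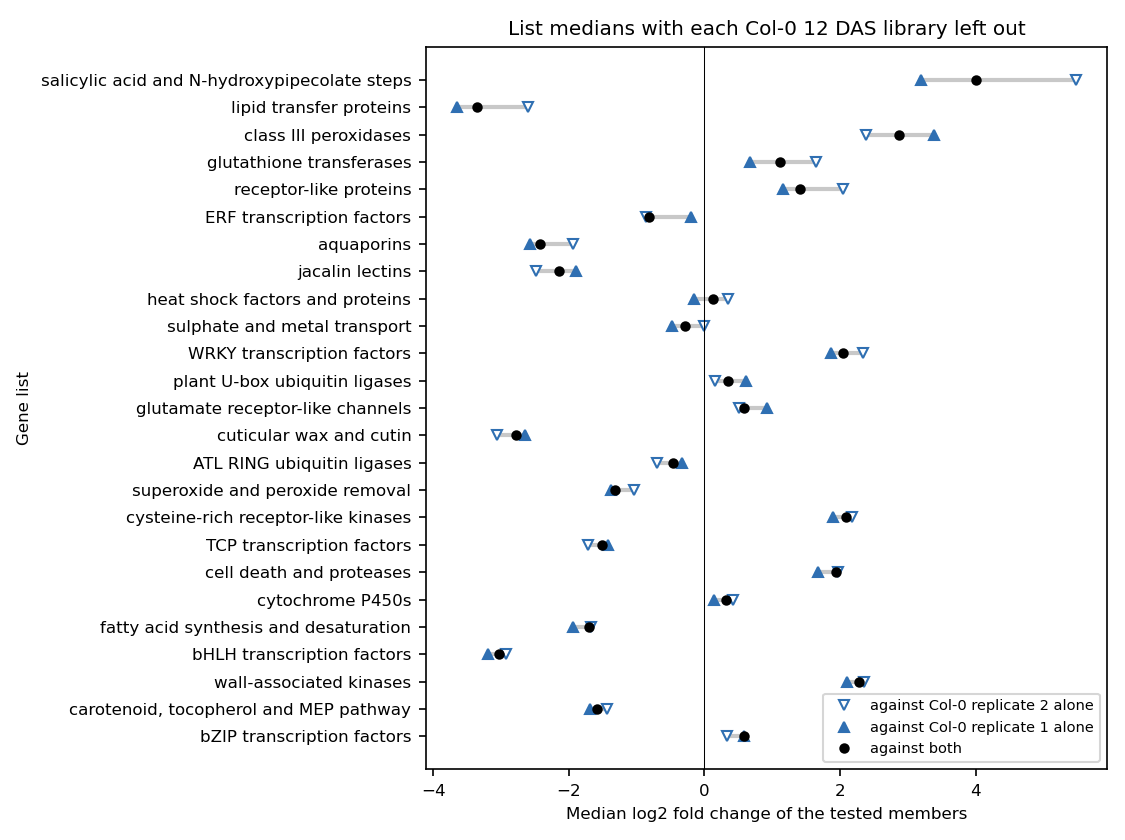
Median log2 fold change of the tested members of 25 gene lists, with both Col-0 12 DAS libraries (black points), with replicate 2 alone (open triangles) and with replicate 1 alone (filled triangles). These are the 25 lists in which the choice of control library moved the median furthest. The salicylic acid list goes from 3.2 to 5.48, and 2 lists reach or cross 0: heat shock (0.35 to -0.15) and sulphate and metal transport (0 to -0.47).

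The DM1-DM2d effect was set against the effect of DM6-DM7 at 14 DAS, each relative to the Col-0 group of its own batch, with no shared library. The effects differed for 11414 of 23118 genes (49.4%; edgeR quasi-likelihood test of the difference, adjusted p under 0.05). CEP1 differed by 9.03 ± 0.96 on the log2 scale (edgeR adjusted p = 1.36e-06), DOX1 by 5.31 ± 0.82 and ASN1 by 4.42 ± 0.81. CSP41B differed by -2.36 ± 0.17 and DND1 by -2.83 ± 0.19. For PROPEP3 the difference was 0.57 ± 0.46 (edgeR adjusted p = 0.331) and for PBS3 2.70 ± 1.1 (adjusted p = 0.0571), neither past the threshold. The DM1-DM2d effect of PBS3 was 6.32, and 9.68 without Col-0 replicate 1, so its difference depends on that library. The gene pairs, ages and label batches differ between the 2 comparisons and cannot be told apart.

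The same gene pair without the ADR1 genes had an effect that differed for 13547 of 23118 genes (58.6%). The comparison is DM1-DM2d minus Col-0 12 DAS against DM1-DM2d adr1s minus Col-0 adr1s, again with no shared library. ATG8H differed by 3.97 ± 0.23 (edgeR adjusted p = 2.65e-10), PDLP5 by 4.43 ± 0.42, PDCB2 by -7.05 ± 0.68 and LHCB1.3 by -4.14 ± 0.27. ICS1 differed by 2.91 ± 0.67 (edgeR adjusted p = 0.00157). The difference was 0.60 ± 1.2 for PBS3 (edgeR adjusted p = 0.698), -0.28 ± 1 for PR1 (adjusted p = 0.846) and 1.26 ± 0.53 for WRKY70 (adjusted p = 0.052). None of the last 3 passed the threshold. Without Col-0 replicate 1 the DM1-DM2d effect itself went from 6.32 to 9.68 for PBS3 and from 11.05 to 13.6 for PR1. Their differences thus depend on that library and do not show equal effects without the ADR1 genes. The adr1s groups lie in label batch 3 and their age is not given, so genotype, batch and possibly age differ together in this contrast and cannot be told apart.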

How the data were processed

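Whole shoots were profiled by strand-specific paired-end RNA-seq, per the labels' protocols. The deposited table holds the authors' raw counts per gene, not normalized. HISAT2 2.2.1, fastp 0.23.2, DESeq2 1.34.0, featureCounts 2.0.1 and the TAIR10 build are named, without options, per the submitters' processing notes. Whether strand was used in counting is not given in the sources used here, so overlapping and antisense genes are uncertain. Of nonzero counts under 20, 64.9% to 66.9% were even, as when both mates of a pair are counted, so counting error is larger than the counts imply.

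Genes were tested with edgeR 4.0.16 (limma 3.58.1, R 4.3.3): filterByExpr with a minimum count of 10, TMM scaling and robust quasi-likelihood fits over all 20 libraries with a term per group, without a block. P-values were adjusted by Benjamini-Hochberg over 23349 genes and called under 0.05. A gene's SE is its log2 change divided by the root of the test's F. Replicates are biological per the labels, and nothing says which share a plate or day.

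The gene lists, the cell type markers and the naming rule were chosen with earlier results of these data known. Named are, per list, up to 4 called genes with the largest changes in the main direction, up to 2 in the other (mean of at least 5 CPM, groups not overlapping) and the 2 with the highest CPM. All salicylic acid genes are named, as are the 10 highest and 10 lowest changes, the 10 largest shares of each group and the 10 highest-count uncalled genes. The text prints a selection of these; ALMT12 and the root and meristem markers were added after their values were seen. A planned kinesin family was dropped because the symbol pattern matched 1 gene. Promoters were read from the RefSeq TAIR10.1 genome with its annotation. Figures used python 3.11.15 and matplotlib 3.10.9. Alternatives were DESeq2 1.42.0, other scalings, filters and thresholds, left-out libraries, a replicate block, only the 5 libraries and, chosen after seeing the data, counts halved and rounded up. The fits were also run on simulated data in which few genes differed, equally in both directions. Most genes differ in the real data, so that run cannot probe the scaling.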

Additional observations from a re-analysis of the deposited data

Results flagged for a closer look

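The effect of DM1-DM2d at 12 DAS differed from that of DM6-DM7 at 14 DAS for 11414 nuclear genes, and from that of DM1-DM2d in the adr1s background for 13547, each by a test of the difference itself (edgeR quasi-likelihood test, adjusted p under 0.05). Age, label batch and genotype cannot be told apart in the first. In the second, batch and genotype cannot be told apart, nor age, which the adr1s labels do not give.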

How the results depend on the processing

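The counts of called genes and of differing effects stayed within 1.5 times of the values reported under all alternatives run. Called genes numbered 14948 at an adjusted p of 0.01, 16999 with DESeq2 (49 adjusted p-values not given), 17701 with only the 5 libraries and 16949 with counts halved. Leaving out 1 library gave 15206 to 16262 called genes, 9634 to 10898 that differed from the DM6-DM7 effect and 12127 to 13023 that differed from the adr1s effect. With 1 Col-0 library left, that library is assumed to vary like the other groups. The labels do not say that replicate numbers pair samples, and they were not taken to. Deviations of same-numbered DM1-DM2d and Col-0 libraries correlated at 0 and -0.06. With 2 Col-0 libraries the deviations of one mirror those of the other, so these correlations cannot decide on pairing. With the replicate block 16049 genes were called. The block gave 11331 and 12276 differing effects.

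Under upper-quartile scaling, which moved the median of all genes to -0.29, the sign turned for 209 of the 16905 called genes, and 2 of these were called in the opposite direction. Among genes called under either scaling that are named, it turned for GUN1 (-0.23) and SE (-0.02), and AAC1 went from 0 to -0.31. Among genes called under neither, only those described above are listed. The sign turned for PEN3 (-0.07), HTB4 (-0.16), LOS1 (-0.23), TGG1 (-0.22), LOS2 (-0.16) and HOG1 (-0.22). It also turned for medians near 0, among them those of the MLO (-0.15) and ABC (-0.09) families. Medians of the cyclic nucleotide-gated channels (0.07) and of heat shock factors and proteins (0.12) are smaller than the shift, so their sign is not settled. The MLO median was -0.23 with a minimum count of 50, and the UDP-glycosyltransferase median 0.08 with no filter. The cause was not tested. Of the 16905 calls, 90.7% were kept under upper-quartile scaling, 90% without Col-0 replicate 1 and 88.7% without replicate 2. The 2 Col-0 libraries, which differ in immune genes, limit the size of such changes, and the floor of 3 counts limits genes absent from a group.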

Other observations

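Several runs of neighbouring genes that moved together hold few genes with a symbol. A run of 7 on chromosome 3 from 4367181 to 4376976 (AT3G13430 to AT3G13437) was higher with a median log2 change of 8.38, and 2 of the 7 are annotated as long non-coding RNAs on the opposite strand. Another 7 genes around UGT76B1 on chromosome 3 (3546276 to 3575803) were higher with a median of 4.43. The run of 7 that begins at MUTE, a stomatal lineage gene, on chromosome 3 (1846442 to 1867415) was lower, with a median of -4.27. In all, 15 runs of at least 7 genes were found.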
